A study of Homo sapiens with 12 samples.

Results

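Lysosomes are acid compartments in which proteases, lipases, glycosidases and sulfatases take apart material brought in by endocytosis, phagocytosis and autophagy, and they are prominent in macrophages. The genes described here are 52 listed lysosome and cathepsin genes in U937 cells, an established human myelomonocytic leukaemia line. They were found through the gene names that the platform annotation gives to the probe sets, and each gene was represented by the probe set naming it alone that had the highest mean over the 12 arrays. Of the 52, 50 were measured, among 19775 genes in all. GLB1 and CD68 had no probe set naming 1 gene, since theirs also name TMPPE and SNORA67, and their values were not analysed here. The 50 comprised 12 cathepsins and other proteases, 17 hydrolases and their activators, 7 membrane and lipid transport proteins, 11 proton pump components and 3 transcription factors.

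The 12 Affymetrix arrays formed 4 groups of 3. They were EVI1-transduced U937 cells in TPA, empty vector U937 cells in TPA, EVI1-transduced cells in ethanol and empty vector cells in ethanol. TPA was given at 50 ng/ml for 24 h, ethanol is its solvent and was given in equal amount for the same time, and both populations had been transduced. TPA, a phorbol ester, acts through protein kinase C and moves U937 cells towards a macrophage-like state. EVI1 is a DNA-binding zinc finger protein, encoded by the gene MECOM. The study asked which transcripts depend on EVI1 with and without TPA. The 3 arrays of each group are biological replicates by the design text, which does not say whether they stem from separate transductions. P-values between the populations measure the spread between these samples, and EVI1 and any other difference between the transduced populations cannot be told apart.

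Values are log2 expression signals as deposited, differences are TPA minus ethanol or EVI1-transduced minus empty vector on that scale, and errors of differences are SE. A gene was called when limma's moderated test over all 12 arrays gave a Benjamini-Hochberg adjusted p under 0.05 over all 19775 genes. Within-group correlations of arrays lay between 0.9909 and 0.9972. The 5 MECOM probe sets lay between 2.59 and 3.32 on all arrays, with a smallest adjusted p of 0.102 between the populations in limma, so the EVI1 label was not seen in its own transcript. Whether these probes lie outside the expressed part of the gene was not tested. Of 12 myeloid markers 11 were measured, with PTPRC at group means of 9.57 to 11.38 and LYZ at 11.23 to 12.87. SPI1 had group means of 5.73 to 6.38, MPO of 5.38 to 6.86, AZU1 of 4.95 to 8.04 and FCGR1A of 2.94 to 3.41, and 2 of the 11 in EVI1-transduced TPA cells and 1 in each other group had a mean under the lowest array median. By comparison the 3 epithelial markers EPCAM, CDH1 and KRT19 had group means of 3.00 to 4.35. In bulk RNA, fewer cells of a type and less RNA per cell cannot be told apart.

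The related helix-loop-helix factors TFEB, TFE3 and MITF are known to bind a promoter element shared by many lysosome genes, with the letters TCACGTGA at its core. The proton pump, or V-ATPase, is built from a cytosolic sector that splits ATP and a membrane sector that carries protons, and it acidifies the lumen so that the hydrolases can work. The core motif reads the same on both strands and holds the shorter E-box CACGTG. Promoters of 36 of the 52 listed genes, from 250 bases before to 50 after the annotated start, were found in a RefSeq table of build GRCh38.p14. TCACGTGA was present for 5 of the 36, or 13.9%, against 1.66% of 15384 measured genes with an entry and 1.18% of all 27305 genes in the table. CACGTG was present for 10 of the 36, or 27.8%, against 10.9% of the measured genes. A match in these windows is a description of letters and not evidence of binding. The 5 promoter stretches are shown because they carry the element named for this gene family, with each copy of TCACGTGA in capitals and up to 30 bases kept on either side but none past the start that lie outside a copy.
ATP6V0D1, chr16:67481180-67481247, minus strand: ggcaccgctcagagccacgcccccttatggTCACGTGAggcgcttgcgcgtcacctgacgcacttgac
CTSA, chr20:45891279-45891334, plus strand: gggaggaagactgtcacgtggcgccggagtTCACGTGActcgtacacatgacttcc
GAA, chr17:80101474-80101580, plus strand: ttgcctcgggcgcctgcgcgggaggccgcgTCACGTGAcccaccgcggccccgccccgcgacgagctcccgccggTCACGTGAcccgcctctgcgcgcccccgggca
LAMP1, chr13:113297180-113297244, plus strand: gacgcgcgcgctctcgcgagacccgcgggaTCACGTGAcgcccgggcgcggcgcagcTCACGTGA
MCOLN1, chr19:7522552-7522623, plus strand: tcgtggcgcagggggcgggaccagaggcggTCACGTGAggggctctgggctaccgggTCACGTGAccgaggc

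GAA, LAMP1 and MCOLN1 each held 2 copies, ATP6V0D1 and CTSA 1 each. Copies began 60 bases before the start in ATP6V0D1, 26 before it in CTSA, and at 77, 29 and 42 bases before it for the first copies of GAA, LAMP1 and MCOLN1. Of these 5 genes, 4 were called higher with TPA in both populations, as were 37 of all 50 members and 3242 of all 19775 genes. The call of GAA in empty vector cells was lost when any of 4 arrays was left out. ATP6V0D1, the common d subunit of the pump, differed by 1.80 in EVI1-transduced and 1.98 in empty vector cells, CTSA by 0.74 and 1.03, MCOLN1 by 0.85 and 0.89, and GAA by 0.63 and 0.47. LAMP1, which also carries 2 copies, differed by -0.003 and 0.09 and was not called in either population.

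Most of the measured lysosome genes were higher in TPA than in ethanol in both populations. Of the 50, 38 rose and 0 fell in EVI1-transduced cells, where 19.4% of all genes were called higher and 20.6% lower. In empty vector cells 39 rose and 1 fell, where 20.7% of all genes were called higher and 22.5% lower. The same 37 genes rose in both. A fit with dim genes left out kept the 10454 with a group mean at or above 6.121, the median of all genes' means. Of these, 3558 rose and 3878 fell in EVI1-transduced cells, and 3531 rose and 4163 fell in empty vector cells, larger shares than over all genes. In that fit CTSC and PPT1 were also called lower in EVI1-transduced cells. The median difference of the 50 was 0.952 in EVI1-transduced and 1.065 in empty vector cells, while the median over all genes was 0.003 and 0.017. In each population 41 of the 50, or 82%, had an unadjusted p under 0.05 in either direction, against 44.6% of all genes in EVI1-transduced and 47.8% in empty vector cells. As measured, the rises ran from 1.18-fold to 8.44-fold in EVI1-transduced cells and from 1.39-fold to 9.67-fold in empty vector cells. At least 1 log2 unit was reached by 24 genes in EVI1-transduced and 28 in empty vector cells, and 2 log2 units by 5 and 9 of them. TPA and ethanol arrays did not overlap for 39 of the 50 in each population, against 46.6% of all genes in EVI1-transduced and 50.3% in empty vector cells.

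**Figure D1:**
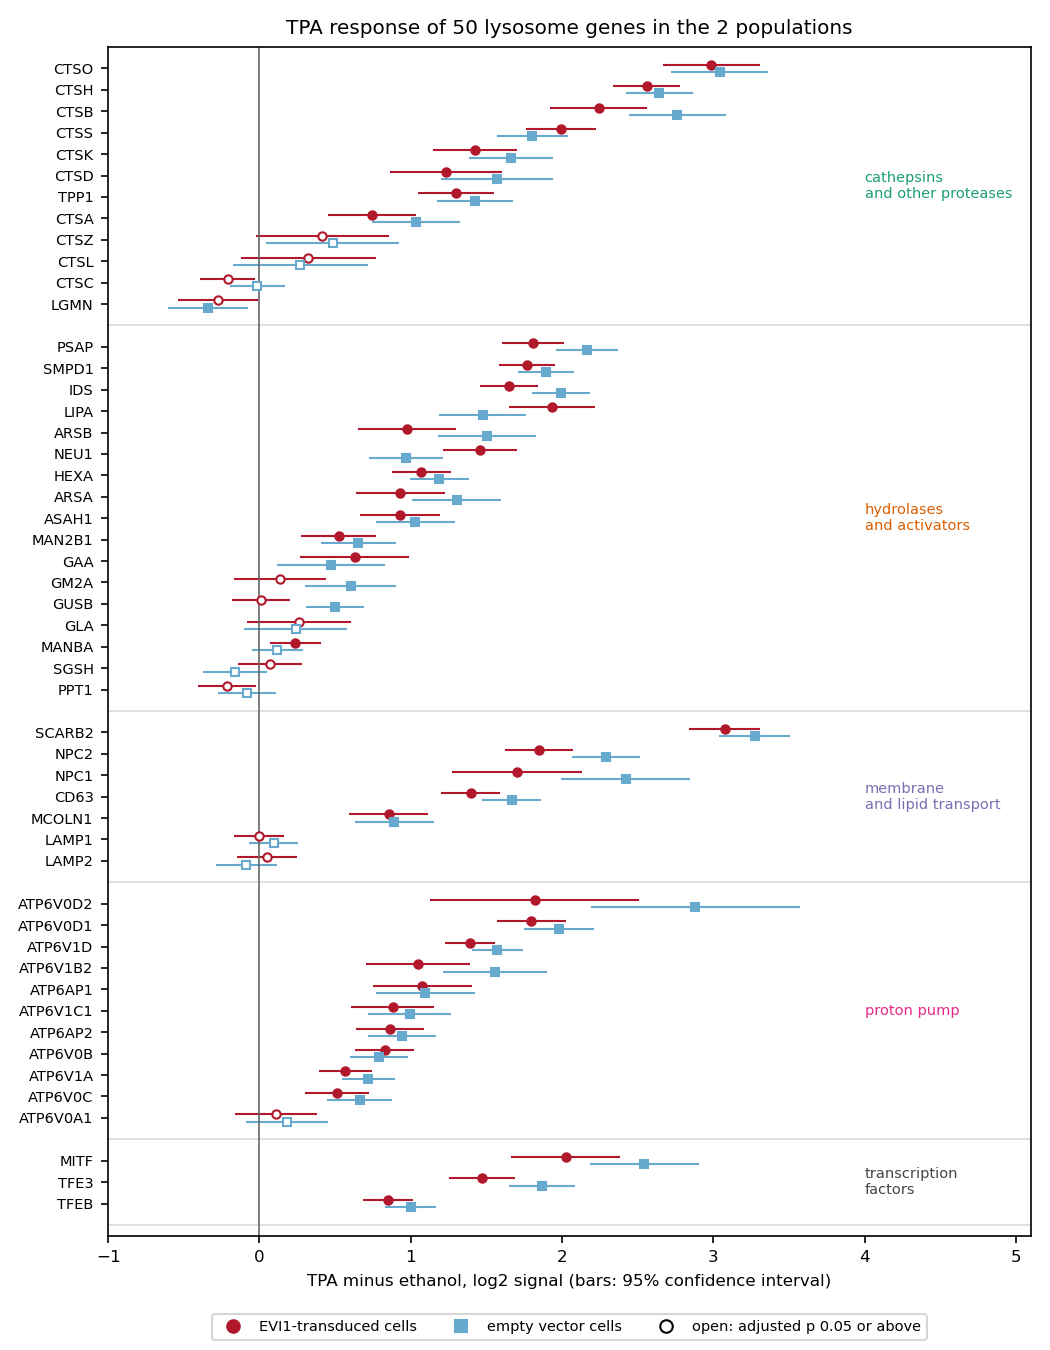
Difference between TPA and ethanol for each of the 50 measured lysosome genes, in log2 signal on the horizontal axis, with EVI1-transduced cells as circles, empty vector cells as squares, bars as 95% confidence intervals and open symbols for an adjusted p of 0.05 or above. Filled symbols stand right of 0 for 38 genes in EVI1-transduced and 39 in empty vector cells, among them SCARB2 at 3.08 and 3.27.

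Some measures moved with the treatment. The gap between the 3' and 5' control probe sets of ACTB, a measure of RNA integrity and labelling, averaged 1.25 ± 0.03 in EVI1-transduced and 1.36 ± 0.25 in empty vector cells in TPA, against 1.91 ± 0.16 and 1.78 ± 0.07 in ethanol (SD, n = 3 each). The summed linear signal of the 11 myeloid markers ran from 8824 to 9460.4 in EVI1-transduced cells in TPA against 13796.5 to 16090.5 in ethanol, and from 9950.1 to 10668 in empty vector cells in TPA against 15448 to 17409.6 in ethanol. Within that list SPI1, PTPRC, CSF2RA and ANPEP rose and CSF3R, MPO, ELANE, AZU1 and LYZ fell in both populations. Markers of erythroid, lymphoid, epithelial, fibroblast and melanocyte cells kept summed signals of 36.9 to 213 in all 4 groups. The part of these shifts in the lysosome results was not tested.

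Cathepsins divided into a group of 8 proteases that rose in both populations and 4 without a call for a rise. CTSO, CTSH, CTSB, CTSS, CTSK, CTSD, TPP1 and CTSA rose in each, and CTSC, CTSL, CTSZ and the asparaginyl protease LGMN were not called higher. For CTSC this is the call of the brightest of 4 probe sets, and the others disagreed, as 2 rose in empty vector cells, by 0.30 and 0.40, and 1 was lower in EVI1-transduced cells, at -0.31 (adjusted p 0.0303, 0.0114 and 0.0263 in limma). CTSO, a cysteine cathepsin, read 7.50, 7.47 and 7.19 on the EVI1-transduced TPA arrays against 4.43, 4.26 and 4.51 in ethanol, and 7.25, 7.49 and 7.87 on the empty vector TPA arrays against 4.57, 4.28 and 4.63 in ethanol. All 6 ethanol values were under the lowest array median of 5.07, a level that cannot be set apart from background, and all 6 TPA values were higher than every ethanol value. The measured rise, which may understate the change because of those low ethanol values, was 2.99 ± 0.15 in EVI1-transduced and 3.04 ± 0.15 in empty vector cells (adjusted p 1.36e-09 and 8.27e-10). CTSH, a cysteine aminopeptidase, read 12.40, 12.46 and 12.61 in EVI1-transduced cells in TPA against 10.00, 9.74 and 10.05 in ethanol. The empty vector arrays gave 12.24, 12.55 and 12.45 in TPA against 9.78, 9.77 and 9.76 in ethanol. The treatments did not overlap, the rises were 5.9-fold and 6.25-fold, and the adjusted p was 1.95e-10 and 9.92e-11.

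CTSB, a cysteine cathepsin abundant in macrophages, rose in both populations and reached a lower level in EVI1-transduced cells. On the TPA arrays it read 12.53, 12.04 and 12.77 in EVI1-transduced and 13.11, 13.10 and 13.10 in empty vector cells. On the ethanol arrays it read 10.20, 10.02 and 10.39 in EVI1-transduced and 10.37, 10.38 and 10.27 in empty vector cells. The empty vector TPA values were nearly equal and all above the EVI1-transduced ones, of which replicate 2 was lowest. Its rise was 4.73-fold in EVI1-transduced and 6.79-fold in empty vector cells (adjusted p 2.05e-08 and 2.06e-09). All 5 CTSB probe sets rose in both populations. CTSS, which trims the invariant chain in antigen-presenting cells, read 10.54, 10.72 and 10.86 in EVI1-transduced cells in TPA against 8.65, 8.57 and 8.92 in ethanol. Its empty vector values were 10.47, 10.40 and 10.47 in TPA against 8.78, 8.57 and 8.58 in ethanol. Here the EVI1-transduced TPA arrays were the highest, and the rises were 1.99 ± 0.11 and 1.80 ± 0.11 (adjusted p 3.09e-09 and 6.4e-09). The CTSS difference between the populations in TPA, 0.26, was not called (adjusted p 0.167 in limma), and its other probe sets gave -0.01 and 0.27.

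Among the remaining proteases that rose, CTSK, the collagen-degrading cathepsin of osteoclasts, rose by 1.42 in EVI1-transduced and 1.66 in empty vector cells. Its 6 ethanol values were also under the lowest array median, so these differences may understate the change. CTSD, the main aspartic protease of lysosomes, rose by 1.23 and 1.57. TPP1, a tripeptidyl peptidase, rose by 1.30 and 1.42. LGMN, which processes other cathepsins, was the 1 member to fall, a call made in empty vector cells. It read 3.15, 3.39 and 3.28 in EVI1-transduced cells in TPA against 3.36, 3.67 and 3.61 in ethanol, and 3.47, 3.57 and 3.48 in empty vector cells in TPA against 3.78, 4.12 and 3.63 in ethanol. Every value lay under the lowest array median, the differences were -0.27 ± 0.12 in EVI1-transduced and -0.34 ± 0.12 in empty vector cells, and the adjusted p was 0.0997 and 0.0391. The call was lost when any of 5 of the 6 empty vector arrays was left out, with an adjusted p of up to 0.191. CTSL and CTSZ, both cysteine cathepsins, differed by 0.32 and 0.42 in EVI1-transduced cells and by 0.27 and 0.48 in empty vector cells, with no call. The CTSZ difference in empty vector cells was called with the replicate number as a block and with array weights (adjusted p 0.0303 and 0.0468 in limma).

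**Figure D2:**
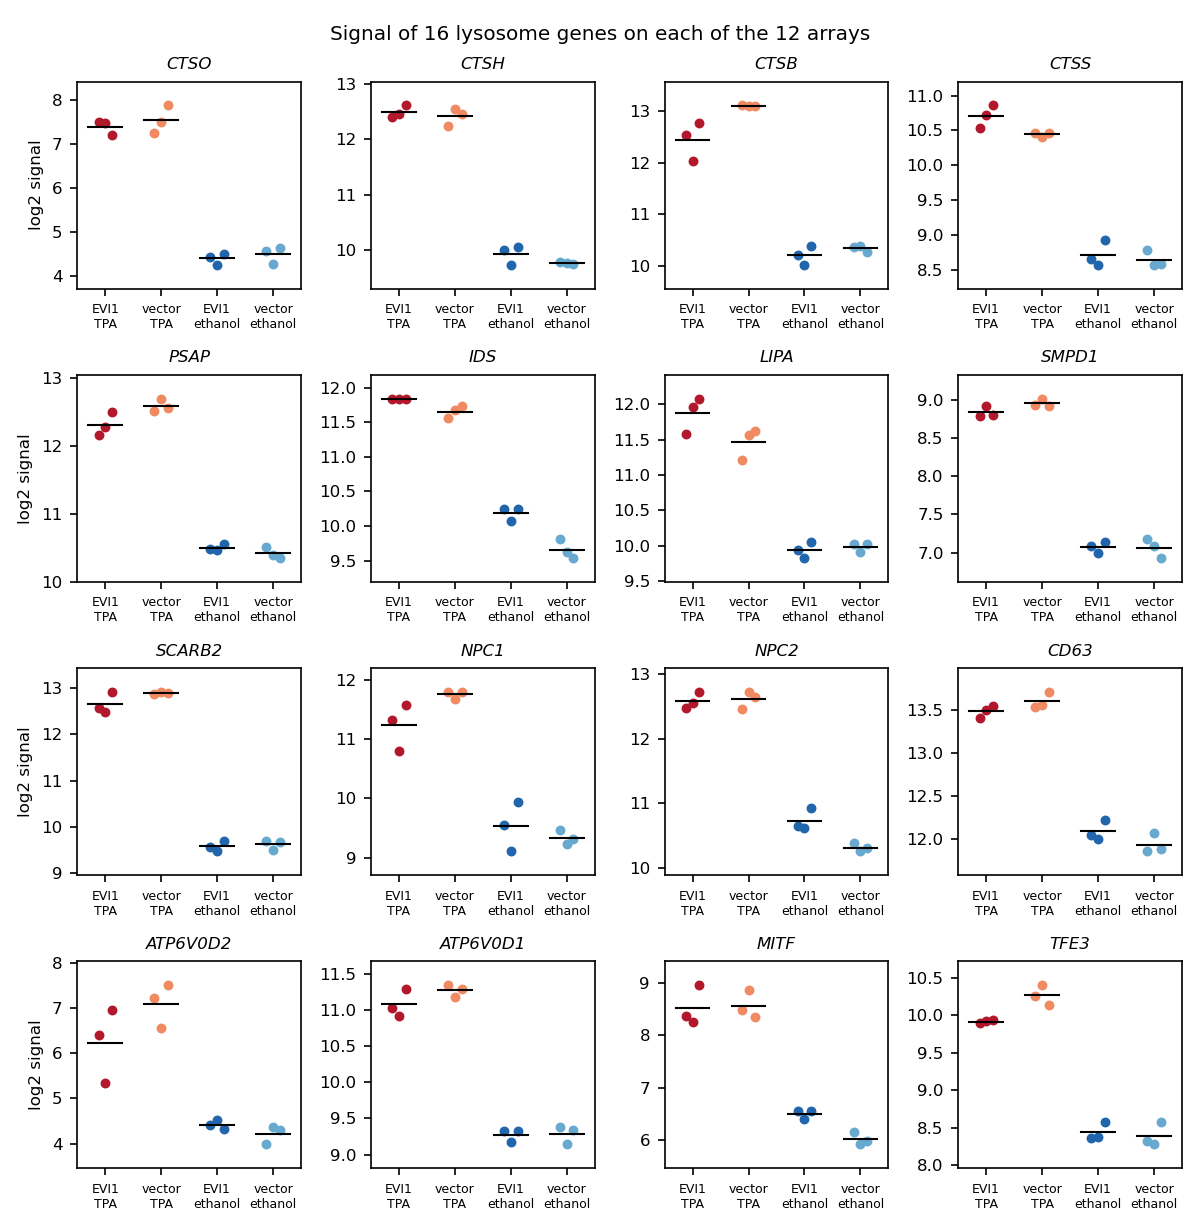
Log2 signal of 16 lysosome genes on each array, with 1 panel per gene, points for the 3 replicates of a group and lines for group means, ordered as EVI1-transduced TPA, empty vector TPA, EVI1-transduced ethanol and empty vector ethanol. Vertical axes differ between panels and do not start at 0. In all 16 panels the 6 TPA points lie above the 6 ethanol points, and CTSB and TFE3 in TPA are lower in EVI1-transduced than in empty vector cells on every array.

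Of the 17 hydrolases and activators, 12 rose in EVI1-transduced and 13 in empty vector cells. PSAP, the precursor of the saposins that hand sphingolipids to their hydrolases, read 12.15, 12.28 and 12.50 in EVI1-transduced cells in TPA against 10.48, 10.47 and 10.55 in ethanol. For empty vector cells the signals were 12.51, 12.69 and 12.55 in TPA against 10.51, 10.40 and 10.35 in ethanol. The treatments were far apart in both, with rises of 3.51-fold and 4.48-fold (adjusted p 2.32e-09 and 3.19e-10). SMPD1, acid sphingomyelinase, read 8.79, 8.93 and 8.81 in EVI1-transduced cells in TPA against 7.09, 6.99 and 7.14 in ethanol. In empty vector cells it read 8.94, 9.02 and 8.92 in TPA against 7.18, 7.09 and 6.93 in ethanol. The 2 populations overlapped in TPA and in ethanol, and the rises were 1.77 ± 0.09 and 1.89 ± 0.09 (adjusted p 9.7e-10 and 3.78e-10).

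LIPA, the acid lipase that hydrolyses cholesteryl esters and triglycerides, was among the few genes with a larger rise in EVI1-transduced cells. It read 11.58, 11.96 and 12.08 there in TPA against 9.94, 9.83 and 10.05 in ethanol, and 11.21, 11.56 and 11.62 in empty vector cells in TPA against 10.03, 9.91 and 10.02 in ethanol. In TPA the 2 populations overlapped by the first replicate of the EVI1-transduced group. The rises were 1.93 ± 0.13 and 1.48 ± 0.13 (adjusted p 3.07e-08 and 3.88e-07), and the difference between them was 0.46 ± 0.19 (adjusted p 0.314). NEU1, a sialidase, had the same pattern, with rises of 1.46 and 0.97 and a difference of 0.49 ± 0.16 between them (adjusted p 0.173). Neither difference was called.

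HEXA, the alpha subunit of beta-hexosaminidase, rose by 1.07 in EVI1-transduced and 1.19 in empty vector cells. ARSA, the sulfatase of sulfatides, rose by 0.93 and 1.30, ASAH1, acid ceramidase, by 0.93 and 1.03, and MAN2B1, an alpha-mannosidase, by 0.52 and 0.65. GAA, the acid alpha-glucosidase that degrades glycogen, rose by 0.63 and 0.47. Its call in empty vector cells was lost without empty vector TPA replicate 2 or 3 or empty vector ethanol replicate 1 or 3, with an adjusted p of up to 0.166 and a value down to 0.308. MANBA, a beta-mannosidase, rose by 0.24 in EVI1-transduced cells and differed by 0.12 in empty vector cells. The MANBA call was lost without EVI1-transduced TPA replicate 2 or 3 or EVI1-transduced ethanol replicate 1 or 2, with an adjusted p of up to 0.0912. GUSB, beta-glucuronidase, and GM2A, the activator of ganglioside breakdown, differed by 0.01 and 0.14 in EVI1-transduced cells without a call, and rose by 0.50 and 0.60 in empty vector cells. GLA, SGSH and PPT1 were called in neither population, with differences of 0.26, 0.07 and -0.21 in EVI1-transduced and 0.24, -0.16 and -0.08 in empty vector cells.

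Among the membrane and lipid transport proteins, SCARB2, known as LIMP-2, carries beta-glucocerebrosidase to the lysosome. It read 12.58, 12.48 and 12.91 in EVI1-transduced cells in TPA against 9.57, 9.47 and 9.70 in ethanol, and 12.87, 12.92 and 12.89 in empty vector cells in TPA against 9.70, 9.50 and 9.66 in ethanol. The lowest TPA array was more than 2 log2 units above the highest ethanol array. Its rises of 8.44-fold and 9.67-fold (adjusted p 6.28e-11 and 2.46e-11) ranked 168th and 181st among those of all 19775 genes, and all 4 of its probe sets rose in both populations.

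Cholesterol leaves the lysosome through NPC2, a soluble carrier, and NPC1, the membrane protein that receives it. NPC2 read 12.47, 12.55 and 12.72 in EVI1-transduced cells in TPA against 10.65, 10.62 and 10.93 in ethanol. The empty vector arrays gave 12.46, 12.72 and 12.64 in TPA against 10.38, 10.26 and 10.31 in ethanol. The populations overlapped in TPA but not in ethanol, and the rises were 1.85 ± 0.10 and 2.29 ± 0.10 (adjusted p 4.5e-09 and 4.23e-10). NPC1 read 11.33, 10.80 and 11.58 in EVI1-transduced cells in TPA against 9.56, 9.11 and 9.94 in ethanol. Its empty vector values were 11.80, 11.68 and 11.80 in TPA against 9.47, 9.23 and 9.32 in ethanol. Replicate 2 was the lowest of each EVI1-transduced group, and all 3 empty vector TPA values exceeded the EVI1-transduced ones. The NPC1 difference between the populations in TPA, -0.52, was not called (adjusted p 0.124 in limma). The rises were 3.25-fold and 5.35-fold (adjusted p 6.39e-06 and 1.53e-07).

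CD63, a tetraspanin of late endosomes and lysosomes, read 13.41, 13.50 and 13.55 in EVI1-transduced cells in TPA against 12.05, 12 and 12.22 in ethanol. For empty vector cells the signals were 13.54, 13.56 and 13.71 in TPA against 11.86, 12.07 and 11.88 in ethanol. The treatments did not overlap, with rises of 1.40 ± 0.09 and 1.67 ± 0.09 (adjusted p 1.75e-08 and 2.44e-09). MCOLN1, the lysosomal calcium channel, rose by 0.85 and 0.89. The structural glycoproteins of the lysosomal membrane gave no call: LAMP1 ran from 12.66 to 12.92 and LAMP2 from 10.62 to 11.04 over the 12 arrays. For LAMP1 no probe set was called. For LAMP2 the brightest probe set, used here, differed by 0.05 in EVI1-transduced and -0.09 in empty vector cells, while its other 3 probe sets differed by 0.65 to 0.88 and 0.30 to 0.83. Probe sets of LAMP2 disagree, and its response is uncertain.

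Of the 11 proton pump components, 10 rose in both populations, among them subunits of both sectors and the accessory proteins ATP6AP1 and ATP6AP2. ATP6V0D2 is a d subunit known from osteoclasts and macrophages. It read 6.41, 5.34 and 6.96 in EVI1-transduced cells in TPA against 4.40, 4.53 and 4.32 in ethanol, and 7.23, 6.55 and 7.51 in empty vector cells in TPA against 3.98, 4.37 and 4.30 in ethanol. Every ethanol value was under the lowest array median, and the EVI1-transduced TPA values spread over more than 1 log2 unit with replicate 2 lowest. Its rises of 1.82 ± 0.32 and 2.88 ± 0.32 (adjusted p 0.000294 and 3.36e-06) may understate the change, and the first ran from 1.46 to 2.27 without 1 array. ATP6V0D1, whose promoter holds 1 copy of the element, read 11.02, 10.91 and 11.29 in EVI1-transduced cells in TPA against 9.33, 9.17 and 9.33 in ethanol. In empty vector cells it read 11.34, 11.18 and 11.28 in TPA against 9.38, 9.14 and 9.34 in ethanol. The 2 populations overlapped within each treatment, and the rises were 3.47-fold and 3.94-fold (adjusted p 6.65e-09 and 2.01e-09).

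In the cytosolic sector, ATP6V1D, a stalk subunit, read 11.16, 11.20 and 11.27 in EVI1-transduced cells in TPA against 9.75, 9.78 and 9.92 in ethanol. The empty vector arrays gave 11.33, 11.37 and 11.35 in TPA against 9.75, 9.86 and 9.72 in ethanol. In TPA it was slightly lower on every EVI1-transduced array, and the rises were 1.39 ± 0.08 and 1.57 ± 0.08 (adjusted p 3.57e-09 and 8.22e-10). The difference of -0.14 between the populations in TPA was not called (adjusted p 0.325 in limma). ATP6V1B2, the common B subunit of the ATP-splitting head, read 11.35, 10.98 and 11.52 in EVI1-transduced cells in TPA against 10.26, 10.00 and 10.45 in ethanol. Its empty vector values were 11.81, 11.43 and 11.68 in TPA against 10.15, 9.84 and 10.26 in ethanol. Replicate 2 was the lowest in all 4 groups, and the rises were 1.05 ± 0.16 and 1.56 ± 0.16 (adjusted p 8.28e-05 and 1.5e-06). ATP6AP1, ATP6AP2, ATP6V0B, ATP6V0C, ATP6V1A and ATP6V1C1 rose by 0.51 to 1.08 in EVI1-transduced and 0.66 to 1.10 in empty vector cells. ATP6V0A1, an a subunit of the membrane sector, differed by 0.11 and 0.18 and was not called.

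All 3 transcription factors rose in both populations at the transcript level. Their activity is known to depend largely on phosphorylation and on entry into the nucleus, which arrays do not measure. MITF read 8.37, 8.25 and 8.96 in EVI1-transduced cells in TPA against 6.55, 6.41 and 6.55 in ethanol. For empty vector cells the signals were 8.48, 8.86 and 8.36 in TPA against 6.16, 5.92 and 5.99 in ethanol. The ethanol values were all higher in EVI1-transduced cells, and the rises were 4.07-fold and 5.83-fold (adjusted p 1.93e-07 and 1.53e-08). The difference of 0.48 between the populations in ethanol was not called (adjusted p 0.19 in limma). TFE3 read 9.89, 9.92 and 9.93 in EVI1-transduced cells in TPA against 8.37, 8.38 and 8.58 in ethanol. In empty vector cells it read 10.26, 10.40 and 10.13 in TPA against 8.32, 8.28 and 8.58 in ethanol. The EVI1-transduced TPA values lay below the empty vector ones, and the rises were 1.47 ± 0.10 and 1.87 ± 0.10 (adjusted p 2.99e-08 and 2.16e-09). TFEB read 9.77, 9.83 and 9.67 in EVI1-transduced cells in TPA against 8.90, 8.90 and 8.92 in ethanol. The empty vector arrays gave 9.66, 9.78 and 9.60 in TPA against 8.70, 8.72 and 8.62 in ethanol. The treatments did not overlap, and its rises of 0.85 ± 0.08 and 1.00 ± 0.08 (adjusted p 5.28e-07 and 8.3e-08) were the smallest of the 3.

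Between the populations in TPA, 5 of the 50 genes were lower and 0 higher in EVI1-transduced cells, where 5.3% of all genes were called lower and 5.9% higher. At an unadjusted p under 0.05 there were 16 members in either direction, or 32%, against 22.4% of all genes. In the fit with dim genes left out, 1190 of 10454 genes were called lower and 1373 higher, larger shares than over all genes. In that fit PSAP was also called lower, and LAMP2 and LIPA higher. ARSB, the sulfatase of dermatan sulfate, read 7.98, 7.87 and 8.04 in EVI1-transduced cells in TPA against 8.75, 8.61 and 9.23 in empty vector cells in TPA. In ethanol it read 6.90, 7.04 and 7.03 in EVI1-transduced and 7.47, 7.07 and 7.53 in empty vector cells. By this probe set it was lower on every EVI1-transduced array in both treatments, with differences of -0.90 ± 0.15 in TPA (adjusted p 0.00138) and -0.37 ± 0.15 in ethanol (adjusted p 0.3). Of its other 3 probe sets, 2 were called lower in TPA, at -0.65 and -0.46, and the last, at -0.15, was not. In ethanol these differed by 0.18, -0.03 and -0.06 without a call. GM2A read 9.23, 9.20 and 9.64 in EVI1-transduced cells in TPA against 9.70, 10.16 and 9.93 in empty vector cells in TPA. In ethanol it read 9.17, 9.17 and 9.32 in EVI1-transduced and 9.30, 9.52 and 9.16 in empty vector cells. It was lower in TPA without overlap, with a difference of -0.57 ± 0.14 (adjusted p 0.0167), and the ethanol groups overlapped.

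CTSC, the dipeptidyl peptidase that activates granule serine proteases, was lower in EVI1-transduced cells in both treatments. It read 10.90, 10.97 and 10.99 in EVI1-transduced cells in TPA against 11.35, 11.55 and 11.65 in empty vector cells in TPA. In ethanol it read 11.17, 11.18 and 11.14 in EVI1-transduced and 11.51, 11.59 and 11.49 in empty vector cells. No EVI1-transduced array reached an empty vector one, with differences of -0.56 ± 0.08 in TPA and -0.37 ± 0.08 in ethanol (adjusted p 0.000638 and 0.0288). The difference of CTSB in TPA was -0.66 ± 0.15 (adjusted p 0.0106), a level 0.634 times that of empty vector cells, and that of TFE3 was -0.35 ± 0.10 (adjusted p 0.0395). The CTSB difference held without any 1 array, with an adjusted p of up to 0.0338. TFE3 lost its call in 8 of the 12 fits that leave out 1 array, with an adjusted p of up to 0.15, and GM2A in 3, with one of up to 0.0788. The count of 5 lower members was 9 without EVI1-transduced TPA replicate 3, and 3 without EVI1-transduced TPA replicate 1 or 2 or empty vector TPA replicate 2. When only the 6 TPA arrays were fitted, CTSB, GM2A and TFE3 missed the threshold with adjusted p of 0.0536, 0.0673 and 0.0808.

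Deviations of same-numbered TPA arrays correlated between the 2 populations at 0.415 for replicate 1, but at only 0.13 and 0.151 for replicates 2 and 3. With the replicate number as a block, 7 members were called lower and 2 higher in TPA in EVI1-transduced cells. ATP6V1B2 at -0.36 and NPC1 at -0.52 were added below, and LAMP2 at 0.29 and LIPA at 0.41 above, with adjusted p of 0.0144, 0.0316, 0.0279 and 0.0353 in limma.

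In ethanol, 2 members were higher and 1 lower in EVI1-transduced cells, where 1.32% of all genes were called higher and 1.95% lower. IDS, the iduronate sulfatase of heparan and dermatan sulfate breakdown, read 10.24, 10.07 and 10.25 in EVI1-transduced cells in ethanol against 9.81, 9.63 and 9.54 in empty vector cells in ethanol. In TPA it read 11.84, 11.83 and 11.83 in EVI1-transduced and 11.56, 11.67 and 11.73 in empty vector cells. The populations did not overlap in either treatment, and the difference was 0.53 ± 0.09 in ethanol (adjusted p 0.00399) and 0.18 ± 0.09 in TPA (adjusted p 0.261). Of its 9 other probe sets, 2 were called higher in ethanol, at 0.63 and 0.54. The first of them was also called higher in TPA, at 0.43 (adjusted p 0.00795 in limma). The TPA rises of IDS were 3.13-fold in EVI1-transduced and 3.98-fold in empty vector cells (adjusted p 2.85e-09 and 3.52e-10). NPC2 was higher by 0.42 ± 0.10 in ethanol (adjusted p 0.0471), and CTSC was the gene called lower. The NPC2 call was lost in 8 and the CTSC call in 6 of the 12 fits without 1 array, with an adjusted p of up to 0.2 and 0.115. Groups did not overlap for 14 of the 50 in TPA and for 14 in ethanol, where 22.4% and 22% of all genes did not.

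**Figure D3:**
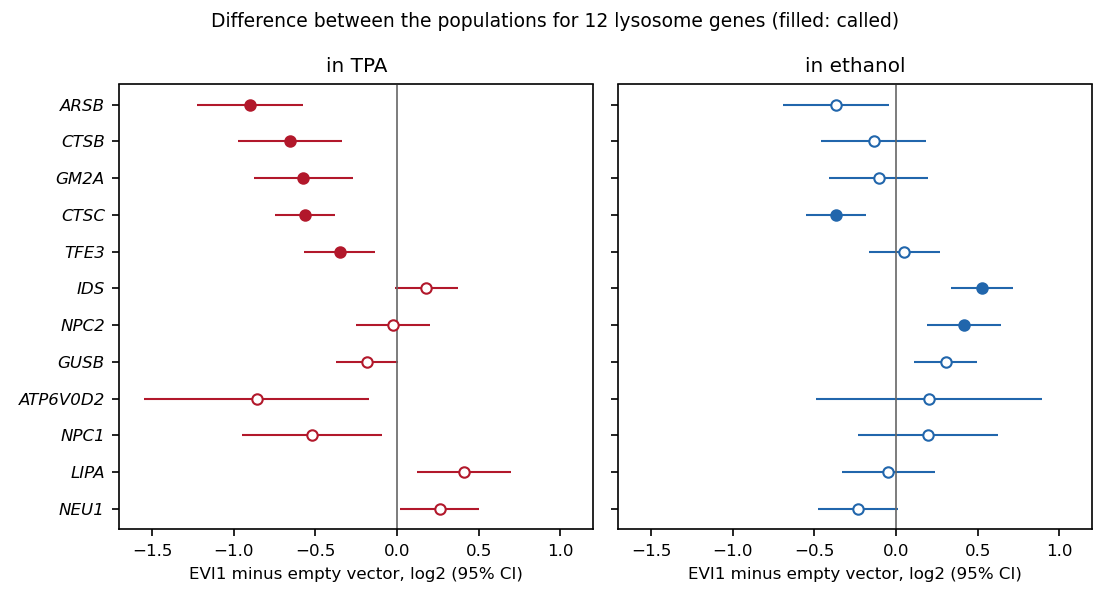
Difference between EVI1-transduced and empty vector cells in log2 signal for 12 lysosome genes, with TPA in the left panel, ethanol in the right panel, bars as 95% confidence intervals and filled points for called genes. The 5 filled points in TPA lie left of 0, and in ethanol CTSC lies left and IDS and NPC2 lie right of it.

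The TPA response itself was compared between the populations. In limma, 0 of 50 members were called higher and 0 lower for the difference in response, where 0.936% and 1.05% of all genes were. At an unadjusted p under 0.05 there were 14 members, or 28%, against 12.5% of all genes. Of the 37 members that rose in both populations, 32, or 86.5%, had the smaller rise in EVI1-transduced cells, with a median difference of -0.153. Among all 3242 genes that rose in both, 1820, or 56.1%, had the smaller rise there, with a median difference of -0.035. Over all 50 members, risen or not, the TPA minus ethanol difference was lower in EVI1-transduced cells for 39, or 78%, against 48.8% of all genes. By role this held for 9 of 12 proteases, 11 of 17 hydrolases, 6 of 7 membrane and lipid transport proteins, 10 of 11 pump components and all 3 factors. These shares describe genes of the same arrays and carry no test. They do not tell a lower TPA level from a higher ethanol level in EVI1-transduced cells. MITF differed between the populations by -0.04 in TPA and 0.48 in ethanol, and NPC2 by -0.03 and 0.42. CTSB differed by -0.66 in TPA and -0.14 in ethanol.

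The widest estimates were imprecise, and that of ATP6V0D2 rests on ethanol values under the lowest array median. ATP6V0D2 had a difference in response of -1.06 ± 0.45, NPC1 -0.72 ± 0.28, ARSB -0.53 ± 0.21, CTSB -0.52 ± 0.21, MITF -0.52 ± 0.24 and ATP6V1B2 -0.51 ± 0.23, with adjusted p of 0.342, 0.283, 0.292, 0.301, 0.382 and 0.367. GUSB came nearest to a call. It read 11.67, 11.52 and 11.41 in EVI1-transduced cells in TPA against 11.58, 11.46 and 11.52 in ethanol, and 11.76, 11.79 and 11.60 in empty vector cells in TPA against 11.29, 11.22 and 11.14 in ethanol. Only the empty vector treatments were apart, and the difference in response was -0.49 ± 0.13 (adjusted p 0.0702). With the replicate number as a block, GUSB and ATP6V1B2 were called, with adjusted p of 0.0393 and 0.0449. Between the populations GUSB differed by 0.30 in ethanol, without overlap, and by -0.18 in TPA (adjusted p 0.0989 and 0.249 in limma). That ethanol difference was called with dim genes left out, with trend and robust moderation and with array weights. For CTSH the difference in response was -0.08, with a 95% interval of ± 0.32.

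**Figure D4:**
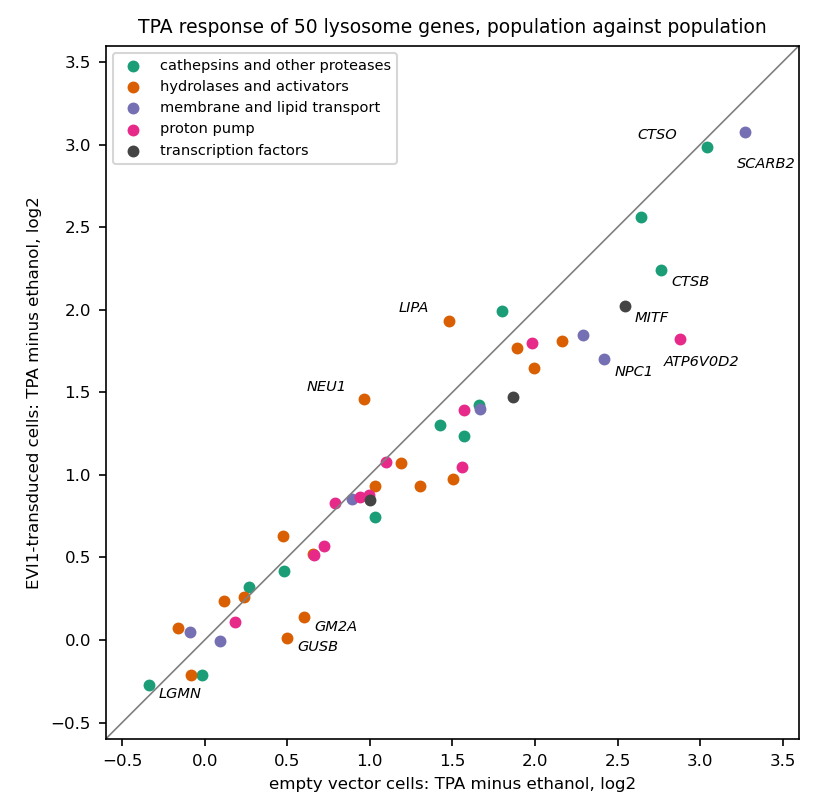
TPA minus ethanol in log2 signal for each of the 50 lysosome genes, with EVI1-transduced cells on the vertical and empty vector cells on the horizontal axis, colours for roles and a line of equal response. Of the 50 points, 39 lie below the line, where the TPA minus ethanol difference is lower in EVI1-transduced cells, against 48.8% of all genes, and LIPA and NEU1 stand above it.

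Other lysosome genes, 88 in a list by known function, were read beside the members. Of these 77 were measured, and 43 rose and 8 fell with TPA in EVI1-transduced cells, against 42 and 11 in empty vector cells. Of all genes, 19.4% were called higher and 20.6% lower in EVI1-transduced cells, and 20.7% and 22.5% in empty vector cells. PLA2G15, a lysosomal phospholipase, rose by 2.77 and 3.04, SLC17A5, the sialic acid exporter, by 2.57 and 2.27, and TCIRG1, an a subunit of the pump, by 2.34 and 2.91. CTSG, a serine protease of neutrophil granules, fell, with differences of -4.57 and -4.02, and so did NAAA, an acid amidase, with -1.16 and -1.01. Of 5 cystatins, inhibitors of cysteine cathepsins, CSTB rose by 1.12 and 1.21 and CST3 by 0.63 and 0.73. CST7 fell by 0.53 in EVI1-transduced cells and differed by -0.24 in empty vector cells.

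Between the populations in TPA, 6 of the 77 were higher and 11 lower in EVI1-transduced cells. Of all genes, 5.9% were called higher and 5.3% lower. HGSNAT, the acetyltransferase of heparan sulfate breakdown, was lower, with differences of -1.82 ± 0.17 in TPA and -0.99 ± 0.17 in ethanol (adjusted p 1.99e-05 and 0.00471), and so was SLC36A1, a proton-coupled amino acid transporter, with -0.79 ± 0.10 in TPA (adjusted p 0.000141). LAMTOR4, a subunit of the Ragulator complex, was higher by 0.83 ± 0.08 in TPA and 0.65 ± 0.08 in ethanol (adjusted p 2.05e-05 and 0.00037), and TPCN1, an endolysosomal cation channel, by 1.06 ± 0.11 in TPA (adjusted p 4.61e-05). In ethanol 2 were higher and 2 lower, where 1.32% of all genes were called higher and 1.95% lower. FUCA1, a fucosidase, was the other higher gene at 0.59, and GALC, galactocerebrosidase, the other lower gene at -0.56.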

How the data were processed

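Total RNA from the 12 U937 samples was labelled from 250 ng by 3' in vitro transcription and hybridised to Affymetrix arrays, per the labels' protocols. The deposited log2 signals come from RMA and, per the submitters' processing notes, from Affymetrix Expression Console 1.3. This method removes background and gives all arrays 1 distribution, which hides a change shared by most genes. No source used here says if all arrays entered 1 normalization. The platform annotation named 1 gene for 41097 of 54675 probe sets, and only these were used.

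Differences were tested two-sided with limma 3.58.1 (R 4.3.3) on group means fitted to the 12 arrays together, 8 residual degrees of freedom and Benjamini-Hochberg adjustment at 0.05 over 19775 genes. The number of arrays limits the precision, with a median SE of 0.105 for a simple comparison. The procedure was tested on simulated data. Members and lists were chosen with earlier results of these data known. Members shown on every array are, per role, up to 4 with the largest rises and up to 3 with the largest falls, all 3 factors and all called between populations. GUSB was added after its values were seen. Deviations of same-numbered arrays correlated at 0.415, 0.13 and 0.151 between the populations in TPA, and at 0.176, 0.143 and 0.075 in ethanol. Between TPA and ethanol they correlated at 0.145, 0.091 and 0.208 in EVI1-transduced and 0.157, 0.105 and 0.079 in empty vector cells. Each value was higher than those with differently numbered arrays of the other group. The main fit left the replicate number out. Alternatives were other probe set rules, dim genes left out, other scaling, variance models, array weights, fewer groups, the replicate block and each array left out.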

Additional observations from a re-analysis of the deposited data

Results flagged for a closer look

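No member was called for a difference in TPA response between the populations in limma, where 14 of 50 had an unadjusted p under 0.05, and 3 of the 77 other lysosome genes were called, tested as the difference between the responses. Of all genes, 0.936% were called higher and 1.05% lower, and 12.5% had an unadjusted p under 0.05. TPCN1, the endolysosomal cation channel, rose by 0.60 in EVI1-transduced cells and fell by 0.41 in empty vector cells, a difference of 1.00 (adjusted p 0.00524). SLC36A1, the proton-coupled amino acid transporter, rose by 1.24 in EVI1-transduced and 1.93 in empty vector cells, a difference of -0.69 (adjusted p 0.0233). RRAGC, a Rag GTPase of nutrient sensing, rose by 0.81 and 1.33, a difference of -0.52 (adjusted p 0.0213). With the mean of all probe sets of each gene, the differences were -0.42 for SLC36A1 and -0.27 for RRAGC, which missed the threshold (adjusted p 0.139 and 0.269), and 0.49 for TPCN1, which passed (adjusted p 0.00875). RRAGC also missed it with the probe set of largest interquartile range, at -0.28 (adjusted p 0.629). Without 1 array in turn, the adjusted p reached 0.069 for SLC36A1 and 0.0589 for RRAGC, and TPCN1 stayed under the threshold.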

How the results depend on the processing

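The number of members that rose with TPA stayed within 1.5 times its value under every alternative tried, from 37 to 39 in EVI1-transduced and 38 to 40 in empty vector cells without 1 array. No called difference of a named member changed sign. Some values without a call did, among them 2: LAMP2 with TPA in empty vector cells, at -0.09 as reported, was called at 0.42 with the mean of probe sets and at 0.83 with the probe set of largest interquartile range, and the members' median between populations in ethanol, 0.03 as reported, was -0.008 without EVI1-transduced ethanol replicate 3. Small counts moved. Members lower with TPA in EVI1-transduced cells, 0 as reported, were 1 with the probe set of largest interquartile range and with quantile normalization, and 2 with dim genes left out, with trend and robust moderation, with array weights and with the replicate block; without 1 array they were 0 to 1. In empty vector cells, 1 as reported, they were 0 with dim genes left out and with array weights, and 0 to 1 without 1 array. With dim genes left out, LGMN, the gene of that call, was itself not in the fit. Between populations in TPA, members higher, 0 as reported, were 1 with the mean of probe sets and with quantile normalization, 2 with dim genes left out, with trend and robust moderation and with the replicate block, and 0 to 1 without 1 array. Members lower, 5 as reported, were 2 when only the groups compared were fitted and 3 to 9 without 1 array. In ethanol, members higher, 2 as reported, were 1 with the probe set of largest interquartile range and with median centring, 5 with array weights, 4 with only the groups compared and 1 to 3 without 1 array. Members lower, 1 as reported, were 0 with quantile normalization and 0 to 1 without 1 array. For the difference in response, members lower, 0 as reported, were 1 with dim genes left out and with trend and robust moderation, 2 with the replicate block and 0 to 1 without 1 array, and members higher stayed at 0. The replicate block ended no call of a member. The cause of these shifts was not tested. Over all genes, calls between populations were 1241 in place of 2214 in TPA with only the groups compared, 1206 in place of 647 in ethanol with array weights, and 617 in place of 392 for the difference in response with array weights.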
